A study of Mus musculus with 8 samples.

Results

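The transcription and splicing regulators of epithelial–mesenchymal transition (EMT) described here were 10 genes taken by name from the 53465 genes of a mouse RNA-seq count table. They were *Snai1*, *Snai2*, *Zeb1*, *Zeb2*, *Twist1* and *Sox4* on the mesenchymal side, and *Ovol1*, *Grhl2*, *Esrp1* and *Esrp2* on the epithelial side. Of the 10, 7 had enough counts to be tested, among 14301 tested genes, and *Ovol1*, *Grhl2* and *Esrp1* did not. The 8 libraries came from 2 pancreatic ductal adenocarcinoma (PDAC) lines, B73 and B87, grown from primary tumors of KC-shSmad4 mice. In these mice Ptf1a-Cre restricts recombination to the pancreas, where it activates the oncogenic allele of the model, the mKate2 reporter and rtTA3, the doxycycline (Dox)-responsive activator that drives a GFP-linked short hairpin RNA (shRNA) against *Smad4*. All 4 groups carried these alleles. Cells on continuous Dox are called Smad4 off, and cells kept without Dox from 5 days before plating are called Smad4 on. Starting 24 h after plating, each state was treated for 24 h with recombinant mouse TGFβ1 (100 pM) or with SB505124 (2.5 µM). SB505124 is a small molecule that blocks the kinase of the type I TGFβ receptor. The 4 groups were therefore Smad4 off with SB505124, Smad4 on with SB505124, Smad4 off with TGFβ1 and Smad4 on with TGFβ1, each with 1 library per line, and values per line below always follow this order.

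Each line is a single tumor-derived culture, and which *Smad4* shRNA it carries is not given in the sources used here. *Smad4* state and the presence of Dox coincide and cannot be told apart, and the TGFβ1 comparison sets added ligand against a blocked receptor, without an untreated culture. P-values rest on the spread between the 2 lines once their mean difference is removed, which edgeR moderates with the spread of other tested genes. Library totals ran from 18389235 to 23440550 counts, so that 3 counts correspond to 0.125 to 0.162 CPM (counts scaled to a common library total). *Smad4* itself, the target of the shRNA, was 33.7 to 35.5 CPM in the 4 Smad4-off libraries and 97.4 to 117 CPM in the 4 Smad4-on libraries, and Smad4-off cells kept 29.6% to 34.6% of the Smad4-on level of the same line and treatment. The epithelial label was checked against 8 ductal and tumor epithelial markers, whose summed level was 3970 to 6220 CPM in B73 and 1220 to 2110 CPM in B87. Keratins and *Cdh1* were detected in every library, while *Epcam* had 3 to 39 counts. Of 10 fibroblast markers, summed at 5.84 to 40.5 CPM in B73 and 51.7 to 668 CPM in B87, *Col1a1* (7 to 12305 counts), *Col3a1* (33 to 833), *Pdgfra* (12 to 154), *Pdgfrb* (0 to 653) and *Col1a2* (0 to 59) were detected, *Fap* had 0 to 7 counts, and *Dcn*, *Lum*, *Thy1* and *Postn* had at most 3 counts in any library. The summed leukocyte (1.33 to 6.49 CPM), endothelial (0.811 to 26.1 CPM) and acinar (0.51 to 1.41 CPM) markers had lower sums than the epithelial ones. Among them *Ptprc*, which marks all leukocytes, had at most 3 counts and the lysosomal *Cd68* 23 to 126, and the endothelial receptor *Kdr* had 7 to 506 and *Cdh5* 0 to 54. The fibroblast and endothelial sums were higher with TGFβ1 than with SB505124 in each line and *Smad4* state, and their part in the TGFβ1 results below was not tested. *Col1a1*, also counted below as a mesenchymal effector gene, was 627 CPM of the highest fibroblast sum of 668 CPM. Per the paper, cultures were passaged repeatedly before use to remove nontumor cells.

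EMT is the program by which epithelial cells lose junctions and apical–basal polarity and gain motile, matrix-producing traits. SNAIL (*Snai1*), SLUG (*Snai2*), ZEB1, ZEB2 and TWIST1 are DNA-binding factors that repress junction genes such as *Cdh1* through E-boxes, whereas GRHL2 and OVOL1 maintain epithelial transcription and oppose the ZEB factors, and ESRP1 and ESRP2 direct splicing toward epithelial isoforms. TGFβ is a classical inducer of EMT: the activated type I receptor phosphorylates SMAD2 and SMAD3, which bind chromatin with SMAD4 at SMAD boxes and GC-rich motifs, and *Snai1* is among the best-known direct targets.

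Upstream sequence was available in RefSeq's promoter table for 4 of the 10 genes (assembly GRCm38.p6), and it is shown for *Snai1* and *Sox4*, the genes called in the TGFβ1 comparisons, and for *Twist1*, which was not called. The 5′ to 3′ sequences end at the base before the gene's 5′ end in the count table. For *Sox4* this lies upstream of RefSeq's start, so 236 of the 250 bases are shown. Capitals mark the E-box (CAGGTG, or CACCTG on the other strand) and the SMAD box (CAGAC, or GTCTG on the other strand). The windows are chr2:167537945-167538194 on the plus strand for *Snai1*, chr13:28953714-28953949 on the minus strand for *Sox4*, and chr12:33957421-33957670 on the plus strand for *Twist1*.
Snai1: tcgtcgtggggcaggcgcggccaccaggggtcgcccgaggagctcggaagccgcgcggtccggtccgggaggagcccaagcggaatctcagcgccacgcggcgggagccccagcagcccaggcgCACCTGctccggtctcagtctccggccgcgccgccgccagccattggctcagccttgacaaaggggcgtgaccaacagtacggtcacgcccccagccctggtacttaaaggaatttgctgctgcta
Sox4: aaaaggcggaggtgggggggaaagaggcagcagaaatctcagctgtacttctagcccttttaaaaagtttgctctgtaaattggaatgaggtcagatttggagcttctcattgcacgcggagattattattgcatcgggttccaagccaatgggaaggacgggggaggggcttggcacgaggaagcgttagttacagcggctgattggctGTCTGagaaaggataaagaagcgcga
Twist1: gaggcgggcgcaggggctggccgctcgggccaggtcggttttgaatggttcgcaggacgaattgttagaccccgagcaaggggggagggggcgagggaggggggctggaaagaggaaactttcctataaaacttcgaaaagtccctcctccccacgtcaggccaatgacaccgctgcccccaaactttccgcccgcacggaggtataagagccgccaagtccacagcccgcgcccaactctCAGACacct

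The 250 bases of *Snai1* held 1 E-box, the motif bound by the SNAIL and ZEB factors themselves, with its first base at position -126, and no SMAD box. They held 4 copies of GGCGC (or GCGCC), the GC-rich motif bound by SMADs, with overlaps allowed, beside 2 copies for *Twist1* and 0 for *Sox4*. The 250 bases of *Sox4* held 1 SMAD box, which lies in the part shown, and no E-box. Its position of -40 is counted from RefSeq's start, downstream of the last base shown. The 250 bases of *Twist1* held 1 SMAD box at position -9 and no E-box. Of 32817 promoter windows of 250 bases, 17.2% held the E-box, 42.2% the SMAD box and 32% the GC-rich motif. A SMAD box was thus present upstream of a gene that rose with TGFβ1 (*Sox4*) and of one that was not called (*Twist1*), and these letter matches say nothing about binding.

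Levels were first compared per transcript length, in RPKM (CPM per kilobase of transcript). *Sox4*, an HMG-box transcription factor, had the highest median over the 8 libraries (17.5 RPKM), followed by *Twist1* (12.1), *Zeb1* (7.89), *Snai1* (6.05), *Esrp2* (5.45), *Snai2* (4.58) and *Zeb2* (2.9). Several neighbors in this order did not separate. *Sox4* exceeded *Twist1* in 4 of 8 libraries and *Snai1* exceeded *Esrp2* in 3 of 8, while *Snai2* exceeded *Zeb2* in 8 of 8. *Snai1* had the widest range of the 7 as a ratio of highest to lowest, from 0.308 to 25.8 RPKM, and *Snai2* stayed between 3.44 and 5.46 RPKM. Of the ZEB pair, *Zeb1* was the higher gene per length, with 6.26 to 9.61 against 1.81 to 3.19 RPKM. On the epithelial side, *Esrp2* was the only gene present at such levels (4.26 to 9.86 RPKM), and *Grhl2*, *Ovol1* and *Esrp1* had medians of 0.00537, 0 and 0 RPKM.

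**Figure D1:**
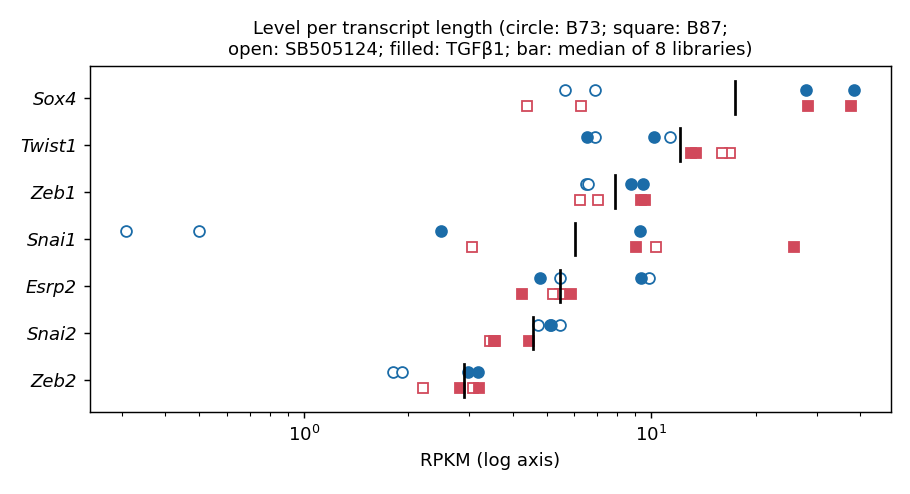
Level per transcript length (RPKM, log axis) of the 7 tested regulators in each of the 8 libraries, with circles for B73, squares for B87, open symbols for SB505124, filled symbols for TGFβ1 and a bar at the median. *Sox4* splits into low SB505124 and high TGFβ1 libraries, and *Snai1* spreads from 0.308 to 25.8 RPKM.

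TGFβ1 was compared with SB505124 in each *Smad4* state to ask which regulators respond to the pathway. Calls required an edgeR adjusted p under 0.05 together with a change of more than 2-fold. In Smad4-on cells, *Snai1* and *Sox4* rose, and in Smad4-off cells only *Sox4* passed both thresholds. That is 2 of 7 tested genes called higher where 5.62% of all 14301 genes were, and 1 of 7 where 3.11% were. No tested regulator was called lower, against 8.31% and 2.82% of all genes. *Zeb1* also rose in both states, by less than 2-fold. Over the 7 genes the median log2 fold change was 0.37 with Smad4 on and 0.5 with Smad4 off, beside -0.019 and -0.017 over all tested genes. The comparisons share no library with each other here, but each shares its libraries with the *Smad4* comparisons below.

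*Sox4* (ENSMUSG00000076431; GRCm38 chromosome 13, 28948919 to 28953713, minus strand), which acts downstream of TGFβ in several epithelia, measured 33.1, 27.1, 134 and 184 CPM in B73. The B87 libraries gave 21, 30.2, 135 and 180 CPM. All 4 TGFβ1 libraries lay far above all 4 SB505124 libraries, and the 2 lines were almost superimposed under TGFβ1. The log2 fold change for TGFβ1 was 2.66 ± 0.185 (SE; 6.34-fold, 95% interval 2.23 to 3.1 in log2) in Smad4-on cells, with an edgeR adjusted p of 0.000176. In Smad4-off cells it was 2.33 ± 0.184 (5.03-fold, 1.9 to 2.77), with an edgeR adjusted p of 0.000969. The rise held in each line, at 2.76 and 2.57 (log2, B73 and B87) in Smad4-on cells and 2.02 and 2.68 in Smad4-off cells. The difference between the *Smad4* states was 0.33 ± 0.251 (log2, interaction, 95% interval -0.26 to 0.93, edgeR adjusted p 0.712). The *Sox4* rise was therefore measured also where *Smad4* mRNA stood at 29.6% to 34.6% of its restored level.

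*Snai1* (ENSMUSG00000042821; chromosome 2, 167538195 to 167542814, plus strand), which encodes SNAIL, had 10, 15, 94 and 296 counts in B73, or 0.499, 0.811, 4.03 and 15.1 CPM. In B87 it had 113, 402, 294 and 819 counts, or 4.96, 16.7, 14.6 and 41.8 CPM. Within each line and *Smad4* state the TGFβ1 library was the higher one, and across states the Smad4-on SB505124 library of B87 lay above the Smad4-off TGFβ1 library of that line. The lines did not share a level, and the lowest B87 value exceeded 3 of the 4 B73 values. In Smad4-on cells the log2 fold change for TGFβ1 was 2.28 ± 0.564 (SE; 4.87-fold, 95% interval 0.95 to 3.62, edgeR adjusted p 0.0211), with 4.07 in B73 and 1.32 in B87. In Smad4-off cells it was 2.02 ± 0.625 (4.04-fold, 0.54 to 3.49), and the edgeR adjusted p of 0.0818 missed the threshold, with 2.79 in B73 and 1.54 in B87. These 2 effects differed by 0.27 ± 0.825 (log2, -1.68 to 2.22, edgeR adjusted p 0.947), so a difference between the states was not measured. The call in Smad4-on cells was lost when the line was left out of the model (adjusted p 0.504 with no replicate block), where the difference between the lines enters the spread, and when the Smad4-on TGFβ1 library of B73 was left out (log2 fold change 1.65, adjusted p 0.0745). Leaving out another library moved the value without ending the call, to 1.56 without the Smad4-on SB505124 library of B73, 3.97 without that of B87 and 3.13 without the Smad4-on TGFβ1 library of B87. Averaged over both states, a contrast chosen after its values were seen, the effect was 2.15 ± 0.424 (edgeR adjusted p 0.00717).

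The *Snai1* rise with TGFβ1 was larger in B73 than in B87 in both *Smad4* states. B87 minus B73 in the TGFβ1 effect was -2.29 ± 0.372 on the log2 scale (95% interval -3.21 to -1.38), and B73 also had the lower SB505124 level. This difference did not pass edgeR's adjustment over all genes (adjusted p 0.377), in a contrast for which edgeR called 0 of 14301 genes and 8.38% of them had an unadjusted p under 0.05. The regulators at such a p were 2 of 7, *Snai1* and *Zeb2*. DESeq2 with the line and the same term called 25 genes, *Snai1* among them (adjusted p 0.0244).

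*Zeb1* (ENSMUSG00000024238; chromosome 18, 5591860 to 5775467, plus strand) gave 66.7, 67.4, 90 and 97 CPM in B73. In B87 the values were 64.3, 72, 96 and 98.7 CPM. TGFβ1 and SB505124 libraries did not overlap, and the lines lay within a few CPM of each other. The TGFβ1 effect was 0.49 ± 0.0794 (log2, 1.4-fold, edgeR adjusted p 0.00416) with Smad4 on and 0.5 ± 0.0794 (1.42-fold, edgeR adjusted p 0.00927) with Smad4 off. On adjusted p alone, 3 of the 7 genes in Smad4-on cells and 2 of 7 in Smad4-off cells passed, where 33.2% and 13.2% of all genes did.

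*Zeb2* (ENSMUSG00000026872; chromosome 2, 44983632 to 45117395, minus strand) gave 36, 38.4, 59.5 and 63.4 CPM in B73. In B87 it gave 44, 61.4, 56 and 63.5 CPM, so that the Smad4-on SB505124 library of B87 lay among the TGFβ1 libraries. Its TGFβ1 effect was 0.37 ± 0.179 (log2, edgeR adjusted p 0.16) in Smad4-on cells, with 0.72 in B73 and 0.049 in B87. In Smad4-off cells it was 0.54 ± 0.18 (edgeR adjusted p 0.0979). Averaged over both states, chosen after its values were seen, it was 0.46 ± 0.127 (edgeR adjusted p 0.0277).

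*Twist1* (ENSMUSG00000035799; chromosome 12, 33957671 to 33959829, plus strand), a bHLH factor, gave 18.3, 11.2, 16.6 and 10.6 CPM in B73. In B87 it gave 27.5, 26, 21.1 and 21.9 CPM. Every B87 library lay above every B73 library, and TGFβ1 libraries were not higher than their SB505124 partners. The TGFβ1 effect was -0.18 ± 0.216 (log2, 95% interval -0.69 to 0.33) in Smad4-on cells and -0.25 ± 0.213 (-0.76 to 0.25) in Smad4-off cells, with edgeR adjusted p-values of 0.562 and 0.49.

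*Snai2* (ENSMUSG00000022676; chromosome 16, 14705852 to 14709395, plus strand), which encodes SLUG, gave 11.1, 9.56, 10.4 and 10.5 CPM in B73 and 6.98, 7.2, 7.22 and 9.02 CPM in B87. The treatments overlapped in B73, and in B87 both TGFβ1 values lay above both SB505124 values, 7.22 against 7.2 CPM at the closest. Its TGFβ1 effect was 0.23 ± 0.17 (log2, -0.17 to 0.63) in Smad4-on cells and -0.027 ± 0.169 (-0.43 to 0.37) in Smad4-off cells. These intervals leave out a 2-fold change of *Snai2* or *Twist1* in either direction, on the spread of these libraries.

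**Figure D2:**
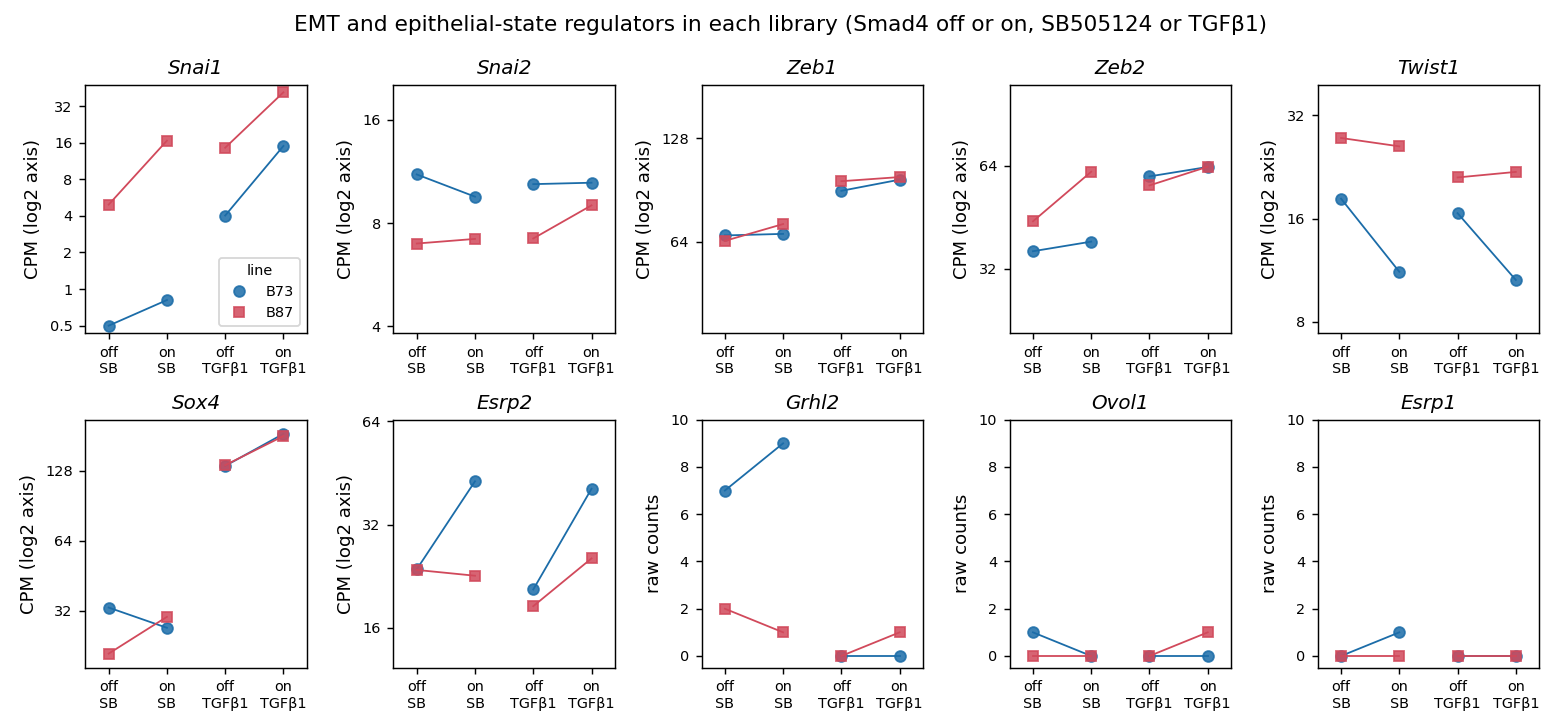
Level of each regulator in the 8 libraries, as CPM on a log2 axis for the 7 tested genes and as raw counts for *Grhl2*, *Ovol1* and *Esrp1*, with blue circles for B73, red squares for B87 and lines joining Smad4 off to Smad4 on within a treatment. *Sox4* steps up with TGFβ1 in both lines, *Snai1* is higher in B87 and highest in the Smad4-on TGFβ1 library of each line, and *Grhl2* has counts mainly under SB505124 in B73.

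*Smad4* restoration was compared within each treatment to ask which regulators depend on SMAD4. None of the 7 tested regulators was called by edgeR in either treatment, where 3.12% of all genes were called under TGFβ1 and 1.09% under SB505124. At an unadjusted p under 0.05 there were 3 (*Snai1*, *Sox4* and *Esrp2*) under TGFβ1 and 1 (*Snai1*) under SB505124, beside 23.7% and 12.6% of all genes. DESeq2 called none of them either, with or without the line. Over the 7 genes the median log2 fold change was 0.17 (TGFβ1) and 0.1 (SB505124). The values that came nearest were those of *Snai1* and *Esrp2*.

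For *Snai1*, the Smad4-on library was the higher one in all 4 pairs of the same line and treatment. The log2 fold change was 1.77 ± 0.544 (SE; 3.41-fold, 95% interval 0.48 to 3.06, edgeR adjusted p 0.108) under TGFβ1, with 1.88 in B73 and 1.51 in B87. Under SB505124 it was 1.5 ± 0.621 (2.83-fold, 0.029 to 2.97, edgeR adjusted p 0.385), with 0.61 in B73, where it rests on 10 and 15 counts, and 1.73 in B87. Without the Smad4-on SB505124 library of B87 the SB505124 value was -0.34 (adjusted p 0.893). The value under TGFβ1 passed the threshold in some alternatives and not in others. A fit of only the 4 TGFβ1 libraries gave 1.69 with an adjusted p of 0.00694, a fit with no filter on low counts gave 1.76 with 0.000463, and leaving out either Smad4-on SB505124 library gave 1.71 with 0.0346 (B73) or 0.038 (B87). Leaving out a TGFβ1 library moved the value the most and did not give a call, with 1 (adjusted p 0.437) without the Smad4-on and 2.19 (0.291) without the Smad4-off library of B73, and 2.44 (0.0861) and 1.38 (0.432) without those of B87. Averaged over both treatments, chosen after its values were seen, the *Smad4* effect was 1.63 ± 0.412 (edgeR adjusted p 0.0609).

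*Esrp2* (ENSMUSG00000084128; chromosome 8, 106130319 to 106136974, minus strand), the splicing regulator of the epithelial state, gave 23.7, 42.8, 20.7 and 40.7 CPM in B73. In B87 it gave 23.6, 22.7, 18.5 and 25.5 CPM. The Smad4-on libraries of B73 stood above all 6 others, which lay between 18.5 and 25.5 CPM. Its *Smad4* effect was 0.72 ± 0.222 (log2, 0.2 to 1.25, edgeR adjusted p 0.107) under TGFβ1, with 0.97 in B73 and 0.46 in B87, and 0.4 ± 0.22 (-0.12 to 0.92, edgeR adjusted p 0.513) under SB505124, with 0.85 and -0.057. DESeq2 with the line gave an adjusted p of 0.0448 under TGFβ1, below 2-fold. B87 minus B73 in the *Smad4* effect was -0.71 ± 0.161 (95% interval -1.09 to -0.33, edgeR adjusted p 0.169). TGFβ1 itself gave *Esrp2* log2 values of 0.036 ± 0.217 with Smad4 on and -0.29 ± 0.222 with Smad4 off, neither past the threshold. Exons of *Esrp2* overlap the opposite-strand gene *Nfatc3* over 219 bases, 5.05% of its length, and *Nfatc3* had 2359 to 3310 counts. The strand setting of the counting is not given in the sources used here, so a share of these counts is uncertain.

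For *Sox4*, the *Smad4* effect was 0.43 ± 0.171 (log2, 0.03 to 0.84, edgeR adjusted p 0.185) under TGFβ1, where both lines were higher with Smad4 on (0.46 and 0.41), and 0.1 ± 0.184 under SB505124, where they went opposite ways (-0.29 in B73, 0.52 in B87). *Zeb1* (0.073 and 0.089) and *Zeb2* (0.13 and 0.31) had small positive log2 values under TGFβ1 and SB505124, and *Snai2* had 0.17 and -0.09. For *Twist1* they were -0.3 ± 0.216 and -0.37 ± 0.214. The B73 line accounted for most of that, with -0.64 and -0.7, beside 0.053 and -0.081 in B87, and the lines differed by 0.66 ± 0.176 (log2, edgeR adjusted p 0.245). In B73, then, the values of *Twist1* were negative and those of *Esrp2* positive with *Smad4* restoration, both were closer to 0 in B87, and neither gene passed the test. None of the 7 interaction values between *Smad4* state and treatment passed, in edgeR or in DESeq2, and at an unadjusted edgeR p under 0.05 there were also 0, beside 0.189% of all genes called and 10.4% at such a p.

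**Figure D3:**
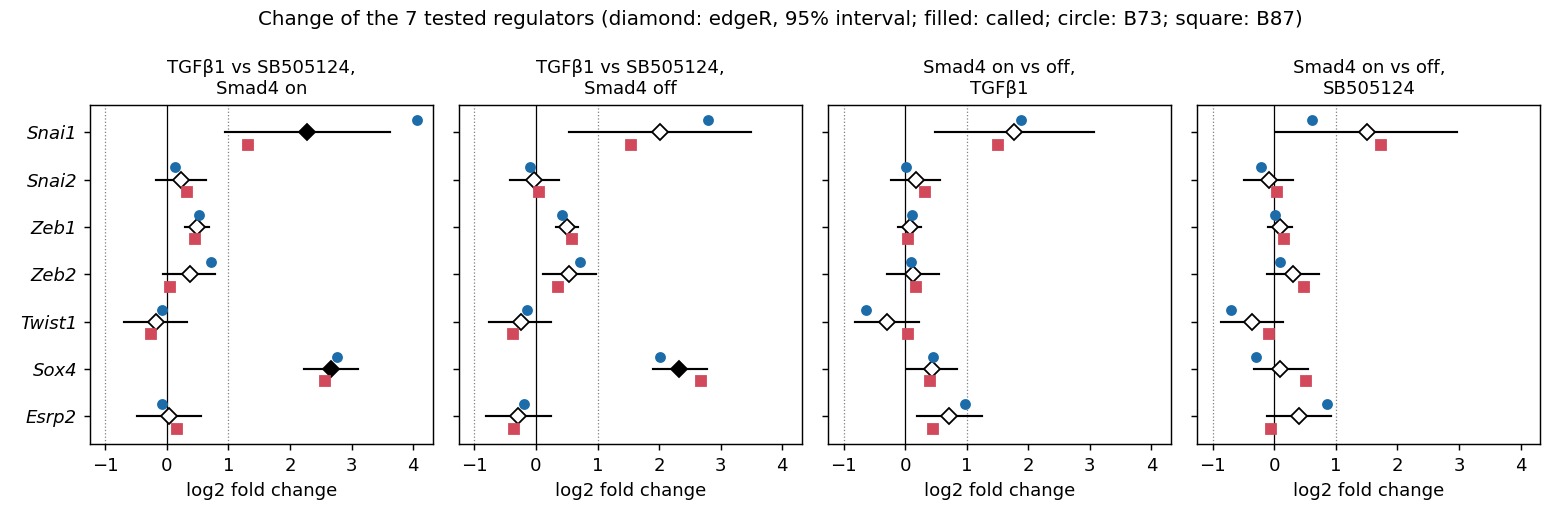
Log2 fold changes of the 7 tested regulators in the 4 comparisons, with the edgeR estimate and its 95% interval as a diamond, filled where called, and the value within each line as a circle (B73) or square (B87). Dotted lines mark 2-fold. *Sox4* is called in both TGFβ1 comparisons and *Snai1* in Smad4-on cells, and no diamond is filled in the *Smad4* comparisons.

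The 3 remaining epithelial regulators were at or near the limit of detection. *Grhl2* (ENSMUSG00000022286; chromosome 15, 37233036 to 37363569, plus strand), which encodes a grainyhead factor that activates *Cdh1* and other junction genes, had 7, 9, 0 and 0 counts in B73 and 2, 1, 0 and 1 in B87. Its counts came from the SB505124 libraries, with 19 in those 4 against 1 in the 4 TGFβ1 libraries. The depth-adjusted ratio was 18.4 with an exact Poisson 95% interval of 2.92 to 764, which covers counting error only. In B73 alone there were 16 counts against 0, which is 5.94-fold higher under SB505124 if 3 counts over the group stand in for the 0. That value leaves out the counting error of the 16. In B87 alone there were 3 counts against 1, a ratio of 2.54 with an interval of 0.204 to 134. *Ovol1* (ENSMUSG00000024922; chromosome 19, 5549137 to 5560575, minus strand), a zinc-finger repressor of *Zeb1*, had 2 counts in all. *Esrp1* (ENSMUSG00000040728; chromosome 4, 11331933 to 11386783, minus strand), the paralog of *Esrp2*, had 1 count in all 8 libraries. At this depth a difference between groups was not detectable for either, and 3 counts in a library would be 0.125 to 0.162 CPM. The ESRP pair was thus unequal per length, with at least 4.26 RPKM of *Esrp2* and at most 0.00857 RPKM of *Esrp1* in any library.

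The lines were compared over the 4 conditions, since several regulators separated by line. *Snai1* was called, at 2.4 ± 0.426 (log2, B87 minus B73, 5.28-fold, edgeR adjusted p 0.00969), higher in B87 in all 4 conditions. That is 1 of 7 genes called, where 8.37% of all genes were. *Twist1* (0.79 ± 0.153, edgeR adjusted p 0.0134) was higher and *Snai2* (-0.45 ± 0.12, edgeR adjusted p 0.0415) lower in B87, both by less than 2-fold. *Esrp2* had -0.45 ± 0.156 (edgeR adjusted p 0.0998), and *Zeb1* (0.04), *Zeb2* (0.22) and *Sox4* (-0.12) did not pass. The higher *Snai1* of B87 went with its lower summed epithelial markers (1220 to 2110 against 3970 to 6220 CPM) and its higher summed fibroblast markers (51.7 to 668 against 5.84 to 40.5 CPM), and of the 5 fibroblast markers tested 3 were called higher and 1 lower in B87. *Dcn*, *Lum*, *Thy1* and *Postn* had at most 3 counts in either line, and the part of these markers in the line difference was not tested. In bulk libraries, fewer cells of a kind and less RNA per cell cannot be told apart.

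The pattern over libraries was compared after removing each line's mean. Over the 8 libraries, which share their conditions, *Zeb1* and *Sox4* moved most alike (Pearson r = 0.99), followed by *Snai1* and *Zeb2* (0.95) and *Snai1* and *Zeb1* (0.86), while *Twist1* and *Esrp2* were the most opposed (-0.74). These correlations describe 8 points that share conditions and are given without a test. Among 9619 genes with a mean log2 CPM of at least 3, those most like *Sox4* were *Plscr3* (r = 0.999), *F2r* (0.998) and *Ctxn1* (0.997), and those most like *Snai1* were *Map1s* (0.998), *Lsm14b* (0.989) and *Mafg* (0.989).

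Other genes of the program were counted in lists of related factors and of the junction, keratin, matrix and cytoskeletal genes that the regulators act on. These lists were chosen with earlier results of these data known, so their counts and medians are descriptive. Over all tested genes, TGFβ1 gave 5.62% called higher and 8.31% lower in Smad4-on cells, and 3.11% and 2.82% in Smad4-off cells. Related mesenchymal-side factors went both ways with TGFβ1. Of 15 tested of 18, 1 was called higher and 3 lower in Smad4-on cells, and 1 and 1 in Smad4-off cells (median log2 fold change 0.071 and 0.0025). *Hmga2*, a chromatin protein that cooperates with SMADs at the *Snai1* promoter, was 265 CPM with SB505124 and 1000 CPM with TGFβ1 in Smad4-on B73 cells, and 212 and 789 CPM in B87. Its rise was 1.91 ± 0.0899 (log2, edgeR adjusted p 5.48e-05) with Smad4 on and 1.23 ± 0.0883 with Smad4 off. *Twist2*, the paralog of *Twist1*, fell with Smad4 on, B73 going from 14.1 to 3.32 CPM and B87 from 9.32 to 1.12 CPM (log2 fold change -2.49 ± 0.28, edgeR adjusted p 0.000967), and *Prrx2* also fell (-1.6 ± 0.22).

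Related epithelial-side factors were called in 1 direction only, with 0 higher and 6 lower of 12 tested (16 listed) in Smad4-on cells and 0 and 1 in Smad4-off cells, at medians of -1.37 and -0.81. The 6 included *Ehf*, *Grhl3* and *Trp63*, at low mean log2 CPM of -1.28, -1.19 and -1.64, and *Grhl3* was the Smad4-off call. At such levels a gene can enter the test through its SB505124 libraries alone and can then only be called lower. The direction of these calls is therefore no support by itself. *Elf3*, an epithelial ETS factor, fell with Smad4 on (-2.7 ± 0.495, edgeR adjusted p 0.00686), B73 going from 38 to 6.94 CPM and B87 from 7.45 to 0.51 CPM. *Klf4* fell too (-1.6 ± 0.45, edgeR adjusted p 0.0336), at -2.61 in B73 and -0.46 in B87. Epithelial effector genes, the junction proteins and keratins, gave 1 higher and 11 lower of 32 tested (36 listed) in Smad4-on cells and 1 and 2 in Smad4-off cells, at medians of -0.97 and -0.4. *Tjp3* (-3.56 ± 0.618) and the polarity gene *Crb3* (-3.31 ± 0.328) had the largest falls among called genes with a mean log2 CPM of at least 1 in Smad4-on cells, and *Krt19* (-1.46 ± 0.211) and the desmosomal *Ppl* (-1.43 ± 0.321) in Smad4-off cells. The exception was *Cldn4*, which encodes a tight-junction claudin and had 0 counts in every SB505124 library. Under TGFβ1 it had 69 and 906 counts in B73 and 4 and 64 in B87, Smad4 off first, and *Smad4* restoration raised it by 3.96 ± 0.247 (log2, edgeR adjusted p 0.00327).

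Mesenchymal effector genes rose more often than they fell with TGFβ1, with 12 higher and 2 lower of 28 tested (31 listed) in Smad4-on cells and 10 and 0 in Smad4-off cells, at medians of 1.08 and 0.81. The matrix gene *Tnc* rose by 4.63 ± 0.281 with Smad4 on and by 2.97 ± 0.287 with Smad4 off. The collagen crosslinking enzyme *Lox* rose by 3.96 ± 0.546 with Smad4 off, from 7 to 95 counts in B73 and from 0 to 17 in B87. With Smad4 on, *Tgfbi* (-4.47 ± 1.32) and *Dab2* (-1.17 ± 0.216) fell. The *Tgfbi* value rests on few counts, 27 with SB505124 and 1 with TGFβ1 in B73, and 183 and 7 in B87. With *Smad4* restoration the same list gave 5 higher and 1 lower under TGFβ1 and 3 and 1 under SB505124. *Acta2*, the smooth muscle actin gene, rose under TGFβ1 (2.51 ± 0.244), and *Acta2* (2.62 ± 0.262) and *Col1a1* (2.08 ± 0.248) rose under SB505124. *Col5a2* fell in both treatments (-1.86 ± 0.338 and -2.33 ± 0.361). *Col1a1* under SB505124 gave 0.63 in B73, from 7 and 11 counts (Smad4 off first), and 2.19 in B87. *Col5a2* gave -2.12 (TGFβ1) and -2.51 (SB505124) in B73. In B87 it gave -0.67 and -0.6, from 55 and 33 counts with TGFβ1 and 14 and 9 with SB505124. Of the factors, 0 of 15 mesenchymal-side and 0 of 12 epithelial-side genes were called by edgeR with *Smad4* restoration under either treatment, where 4 of the 15 and 3 of the 12 had an unadjusted p under 0.05 with TGFβ1 and 4 and 2 with SB505124. Of the epithelial effectors 1 was higher and 2 lower (*Ppl*, -2.2 ± 0.341, and *Crb3*, -1.78 ± 0.347) under TGFβ1 and 0 under SB505124, where 8 had an unadjusted p under 0.05. Over all tested genes, 3.12% were called under TGFβ1 and 1.09% under SB505124, and 23.7% and 12.6% had an unadjusted edgeR p under 0.05.

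Other splicing regulators, listed beside the ESRP proteins and not all of the epithelial side, were mostly not called. Of 9 tested (10 listed), only *Rbm47*, an RNA-binding protein that shares splicing targets with the ESRPs, passed both thresholds. Some others passed on adjusted p alone. *Qk* rose by 0.9 (log2, edgeR adjusted p 0.000358) with TGFβ1 in Smad4-on cells and by 0.52 (0.0125) with *Smad4* restoration under TGFβ1. *Rbm47* gave 71.1, 80.8, 38.4 and 14.4 CPM in B73 and 42.4, 38.3, 22.4 and 8.21 CPM in B87. In both lines the Smad4-on TGFβ1 library was the lowest. TGFβ1 lowered it in Smad4-on cells (-2.36 ± 0.122, edgeR adjusted p 7.76e-05) and, by less than 2-fold, in Smad4-off cells (-0.91 ± 0.113, edgeR adjusted p 0.00419). *Smad4* restoration under TGFβ1 lowered *Rbm47* too (-1.43 ± 0.121, edgeR adjusted p 0.00187). Its *Smad4*-by-TGFβ1 interaction was called too (-1.45, edgeR adjusted p 0.0387), whereas that of *Esrp2* was 0.32 ± 0.311 (edgeR adjusted p 0.788).

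**Figure D4:**
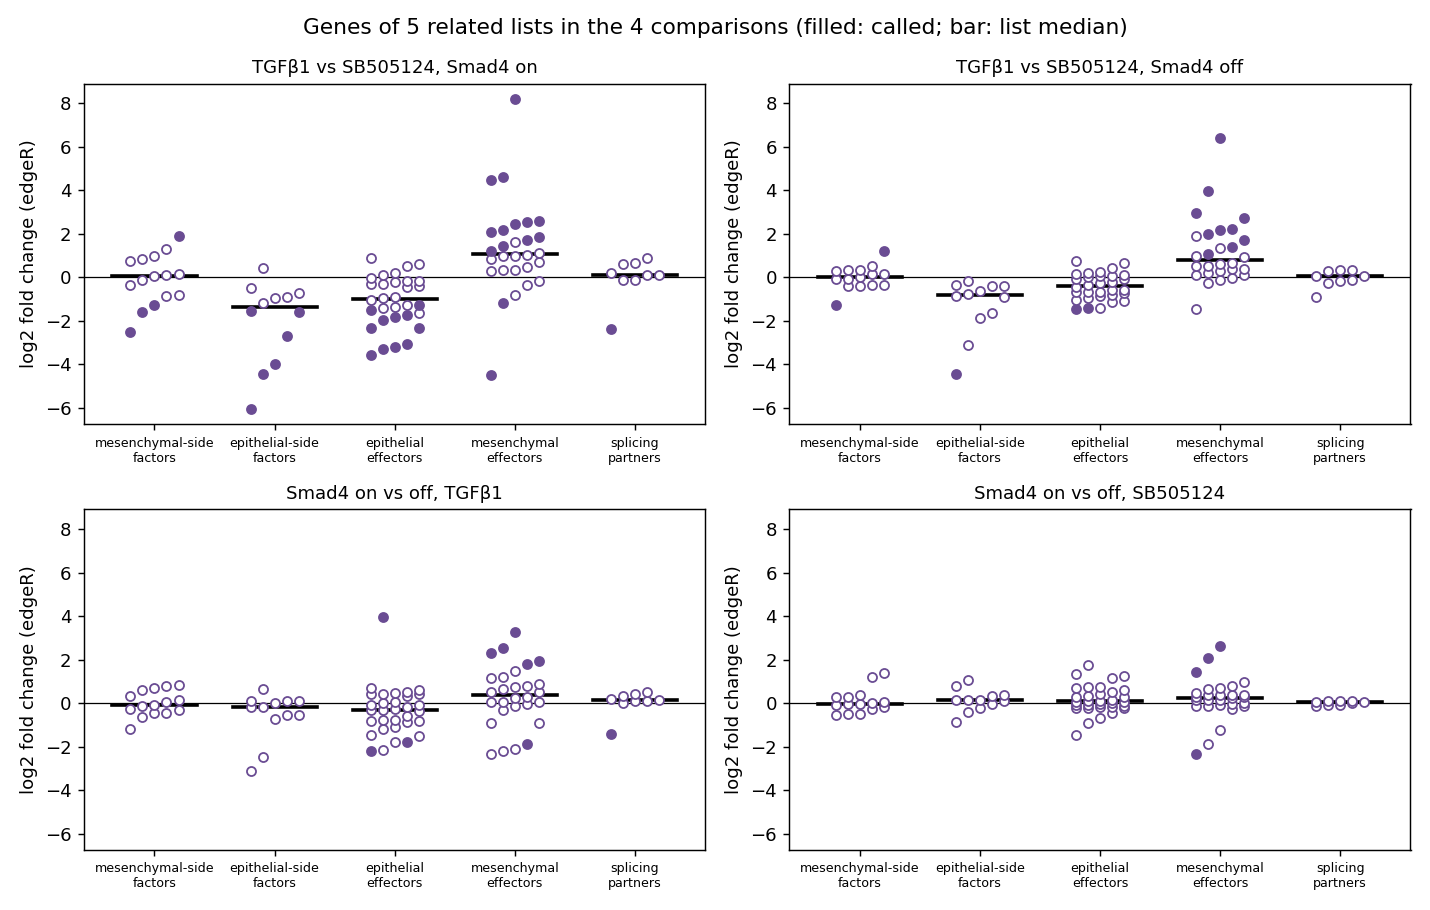
Log2 fold changes (edgeR) of the tested genes of 5 related lists in the 4 comparisons, filled where called, with a bar at the list median. *Cldn4*, which had 0 counts under SB505124, is left out of the TGFβ1 panels but counts in the medians. With TGFβ1 in Smad4-on cells, called epithelial-side factors all lie below 0 (6 of 12 tested) and mesenchymal effectors lie mostly above it (median 1.08). The 6 include *Ehf*, *Grhl3* and *Trp63*, which were at low levels.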

How the data were processed

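The 8 libraries (4 per line) were prepared by the authors with a stranded poly(A) kit and sequenced as single-end reads. Per the labels, FastQC 0.11.5, Trimmomatic 0.36, STAR 2.5.3a and featureCounts 1.6.3 were used on mm10 (GRCm38), with no strand setting given in the sources used here. The deposited values are raw counts for 53465 genes, unpooled, with 1 column per library. Groups and lines were read from the sample titles.

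Counts were tested with edgeR 4.0.16 in R 4.3.3 (TMM normalization, filterByExpr, quasi-likelihood F-test) in a single model of 4 groups plus the line, with 3 residual degrees of freedom. The spread of each gene was moderated across genes, and p-values and intervals use the larger total degrees of freedom that result. The study's methods name DESeq2 and no covariate. The line named in each title pairs the libraries, since every line passed through all groups, and between 6 pairs of groups the deviations of the lines from their group mean correlated (r = 0.642 to 0.774). Adjusted p-values are Benjamini-Hochberg over 14301 genes. Calls need an adjusted p under 0.05 and more than a 2-fold change, the study's thresholds. SE is the log2 fold change over the square root of F. CPM use TMM-scaled totals, RPKM divide by the deposited gene length, and per-line fold changes are log2 CPM with a prior count of 2. Line differences in an effect added 1 term to the model. Genes sharing 75-base stretches and overlapping exons were looked up in GENCODE M21, where no regulator shared such a stretch with another gene. The scripts were tested on simulated counts.

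Totals of 18389235 to 23440550 counts set the precision. The edgeR intervals rest on the moderated spread between libraries. Since PCR copies cannot be told apart, the Poisson intervals cover counting error only, and the floors only that of the lower count. Named genes were the 10 regulators and *Smad4* and, per list and comparison, the 2 largest called rises and falls that had a mean log2 CPM of 1 or more and the same sign in both lines. *Ehf*, *Grhl3*, *Trp63* and *Qk* were named in addition, to show low levels or changes below 2-fold. Counts and medians of the lists include 1 gene whose own values are not reported here. The 3 most similar genes were sought for each called regulator. The regulators and lists were chosen with earlier results of these data known. Alternatives were DESeq2 1.42.0 with and without the line, DESeq2 size factors, no filter on low counts, edgeR leaving out the line, a minimum of 10 counts per library, no fold rule, only the 4 libraries compared, each library left out, and 2 averaged contrasts added after the data were seen.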

Additional observations from a re-analysis of the deposited data

How the results depend on the processing

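Calls of the regulators rest on 2 libraries per group, so a fit that moves the estimated spread moves them. Under *Smad4* restoration with TGFβ1, the count of called regulators went from 0 to 1 (*Snai1*) with no filter on low counts and in the fit of only the 4 libraries compared, and with SB505124 from 0 to 1 with no filter. Over all genes, the calls with TGFβ1 went from 446 to 783 with no filter and to 517 in the fit of 4 libraries. With SB505124 they went from 156 to 403 with no filter. For TGFβ1 in Smad4-on cells it went from 2 to 1 with no replicate block and in DESeq2 without the line. For TGFβ1 in Smad4-off cells it went from 1 to 2 with no filter, with no fold rule and with only the 4 libraries compared. The line comparison gave 3 with no fold rule, and the line difference in the TGFβ1 effect gave 1 (*Snai1*) in DESeq2 with the line and with no filter. Leaving out each library gave 0 to 1, 1 to 2 and 1 to 2 called regulators for *Smad4* under TGFβ1 and for TGFβ1 with Smad4 on and off. In those fits the lone library of a group is assumed to vary like the others. The pairing by line also moved the other lists. With no replicate block, 0 instead of 10 of their genes were called for *Smad4* under TGFβ1 and 0 instead of 4 under SB505124. Over all genes, 36 instead of 446 and 2 instead of 156 were called there, so this fall was not particular to the lists. For TGFβ1, 11 instead of 37 list genes were called with Smad4 on and 2 instead of 16 with Smad4 off. The causes were not tested.

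Of 784 alternative values for single regulators, 685 kept their direction and side of the threshold, 32 gained and 13 lost it, and 54 changed sign, all of effects that had not passed. Among these, the *Snai1* interaction was -0.07 and -0.064 with no replicate block (edgeR and DESeq2), and the averaged TGFβ1 effect of *Esrp2* was -0.13. The others came from leaving out 1 library. Their log2 ranges for *Smad4* under SB505124 were -0.34 to 2.33 (*Snai1*), -0.22 to 0.057 (*Snai2*), -0.22 to 0.47 (*Sox4*) and -0.017 to 0.58 (*Zeb2*), and under TGFβ1 -0.59 to 0.0079 (*Twist1*) and -0.066 to 0.35 (*Zeb2*). For TGFβ1 with Smad4 on they were -0.26 to 0.38 (*Esrp2*) and -0.42 to 0.13 (*Twist1*), and with Smad4 off -0.56 to 0.035 (*Esrp2*), -0.15 to 0.13 (*Snai2*) and -0.56 to 0.045 (*Twist1*). For the interaction they were -0.58 to 2.06 (*Snai1*), -0.035 to 0.66 (*Sox4*), -0.22 to 0.39 (*Twist1*), -0.083 to 0.038 (*Zeb1*) and -0.45 to 0.15 (*Zeb2*). For line terms they were -0.19 to 0.043 (*Sox4*, level), -0.42 to 0.5 (*Esrp2*), -0.15 to 0.64 (*Sox4*), -0.55 to 0.17 (*Twist1*) and -0.022 to 0.11 (*Zeb1*) in the TGFβ1 effect, and -0.9 to 2.12 (*Snai1*), -0.022 to 0.11 (*Zeb1*) and -0.075 to 0.59 (*Zeb2*) in the *Smad4* effect. *Zeb1* in Smad4-off cells missed the threshold without the B73 TGFβ1 library (adjusted p 0.064), the B87 SB505124 library (0.0608) or the B87 TGFβ1 library (0.105), and *Snai2* between lines missed it in 6 of 8 such fits and in DESeq2 (0.0557).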
